A study of Mus musculus with 6 samples.

Results

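The nuclear genes of the mitochondrial respiratory chain were followed in mouse mesenchymal stem cells exposed to pulsed terahertz radiation. Members were taken by gene symbol, as the Nduf, Sdh, Uqcr, Cox and Atp5 genes that encode chain proteins, and the brightest probe set of a gene, averaged over the 6 arrays, stood for it. This gave 90 of the 18193 genes with a probe set of their own. Subunits made up 80 of them: 34 of complex I, 4 of complex II, 8 of complex III, 17 of complex IV and 17 of complex V. The same symbols also took in 8 assembly factors of complex I and 2 related proteins, Ndufa4l2 and Cox7a2l, which are described apart from the subunits. Cox7b had no named probe set and is not analysed here.

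The cells were bought mouse mesenchymal stem cells, a stromal type able to form fat, bone and cartilage, and no strain or age was given. Both groups grew in 95% alpha-MEM with 5% fetal bovine serum, and a mixture that drives fat cell formation was added 48 h before exposure, made of 1 µM rosiglitazone, 5 µg/ml insulin, 1 µM dexamethasone and IBMX, which blocks phosphodiesterases, at 100 µM. The irradiated cultures received broadband terahertz pulses of 35 fs centred near 10 THz for 12 h, at 1 kHz and 1 mW/cm2, and each control culture stood beside its irradiated partner at the same 26 to 27 °C. There were 3 independent experiments with 1 irradiated and 1 control array each, called experiments 1 to 3 below, so n = 3 per group. RNA was taken at the end of the exposure, so only that time point is described.

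The respiratory chain passes electrons from NADH and succinate to oxygen across complexes I to IV and pumps protons out of the mitochondrial matrix, and complex V, the ATP synthase, lets the protons back in and makes ATP. Most subunits are encoded in the nucleus, and their transcripts are abundant in cells that respire. Fat cell formation is known to go along with more mitochondria, and several complex IV subunits exist as a widespread form and as a form restricted to muscle, testis or other tissues. Subunits encoded by mitochondrial DNA had no named probe set here: 0 of 13 were measured.

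Levels are the deposited log2 values of probe sets, and a difference is irradiated minus control, so a difference of 1 is a doubling. A gene was counted as expressed at a mean of at least 6 in 1 group. By this measure 83 of the 90 members were expressed, 73 of the 80 subunits among them, and 65 subunits had a mean of at least 10. The 7 members below that level were Cox4i2, Cox6a2, Cox7a1, Cox7b2, Cox8b, Cox7c and Ndufb4. For Ndufb4 the low mean of 3.19 belonged to the probe set with that symbol alone, while 2 probe sets that Ndufb4 shares with 2 other symbols had means of 10.81 and 10.86. Ndufs5 had a mean of 6.58 on its own probe set and of 10.79 on one shared with another symbol. Cox7c, which is not a restricted isoform, had means of 5.4 and 3.48 on its 2 probe sets. Whether the probes or the transcript set these low values was not tested. Of the members, 39 had 1 probe set and 51 had several. With 3 arrays per group the precision is limited, and the SE of a gene also rests on a spread pooled over all probe sets.

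The first question was whether any of these transcripts differed between irradiated cells and their adjacent controls. No member passed the test, and the differences were small: 73 of 90 were under 0.1 in size, against 51.0% of all genes. With limma and the experiment as a block, 0 of 90 members had a Benjamini-Hochberg adjusted p under 0.05, and the smallest was 0.575. The same fit called 0 of all 45037 probe sets, or 0.0%, with a smallest adjusted p of 0.188. At an unadjusted p under 0.05 there were 2 members, or 2.22%, against 8.31% of all genes, both higher in irradiated cells, where 3.70% of all genes were called in that direction, and none lower, where 4.61% were. Without the replicate block this count of members was 0, and it was 1 without experiment 1, 0 without experiment 2 and 2 without experiment 3.

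The intervals show how large a difference these data leave room for. The 95% interval of the difference lay within 1.5-fold in either direction for 82 of the 83 expressed members, against 89.9% of all expressed genes. The exception was Ndufaf7, whose interval ran from 0.07 to 0.66. Across members an interval reached, in the median, 0.23 to either side on the log2 scale, which is 1.18-fold. This is the width of the unadjusted interval of 1 gene. It rests in large part on the spread pooled over all probe sets, since SEs of expressed members ran only from 0.093 to 0.126. Larger differences than that also did not pass the adjusted test, such as 0.37 for Ndufaf7.

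**Figure D1:**
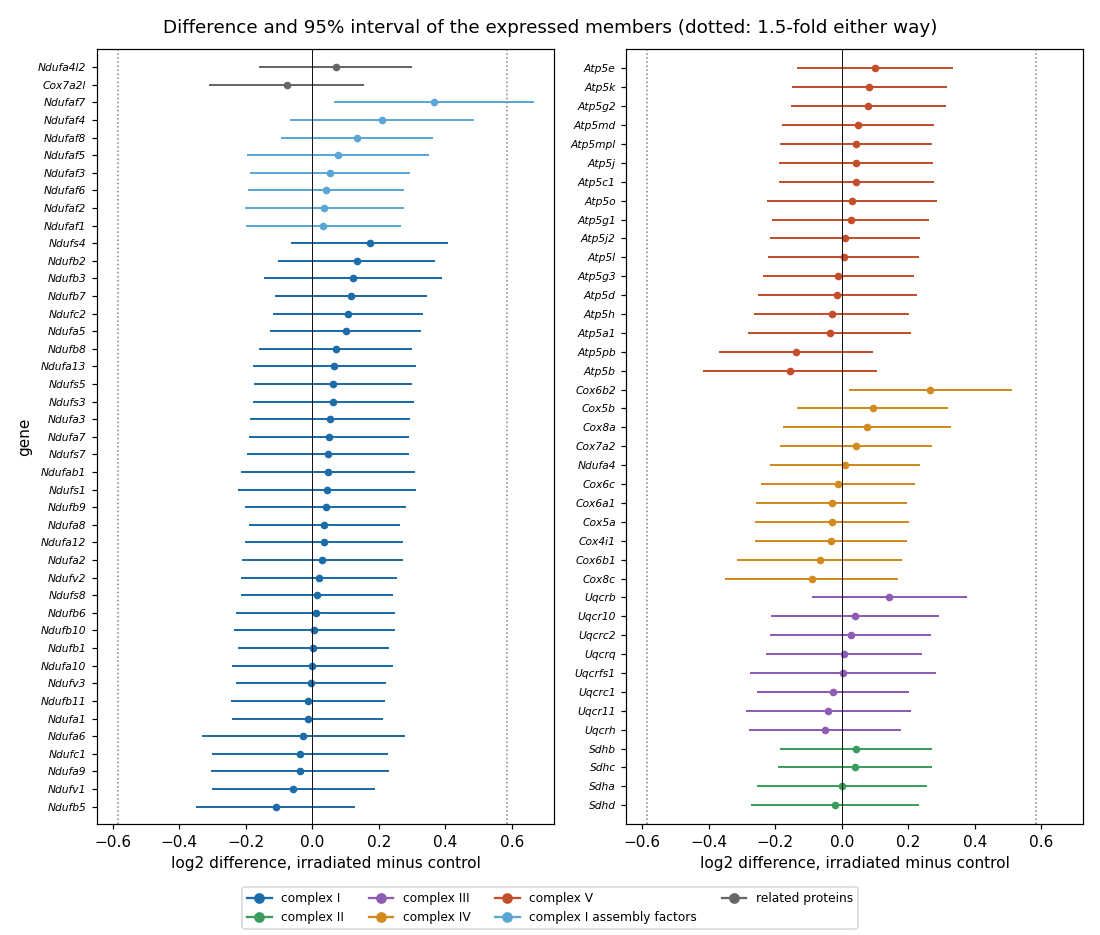
Log2 difference (irradiated minus control) of each expressed member with its 95% interval from the limma fit, coloured by complex; the vertical dotted lines mark 1.5-fold in either direction. The interval of Ndufaf7, from 0.07 to 0.66, is the one that crosses a dotted line, and 2 intervals, those of Ndufaf7 and Cox6b2, lie above 0.

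Complex I, which takes electrons from NADH, had 24 subunits higher and 9 lower of 34, with a median difference of 0.037 and 1 equal. Over all genes the median was 0.0067, with 51.1% higher and 47.9% lower. Single differences ran from -0.11 for Ndufb5, a subunit of the membrane arm, to 0.17 for Ndufs4, an accessory subunit whose loss causes complex I deficiency. Ndufs4 read 9.43, 9.32 and 9.14 on control arrays 1 to 3 and 9.51, 9.50 and 9.40 on irradiated arrays 1 to 3. Each irradiated array was above its own control, by 0.08, 0.18 and 0.26, but the groups overlapped, and the limma adjusted p of the mean difference, 0.17 ± 0.10 (SE), was 0.682. Another expressed probe set of Ndufs4, with a mean of 7.56, gave 0.06, with 0.05, 0.13 and 0.00 in experiments 1, 2 and 3. Ndufb5 read 11.23, 11.46 and 11.41 in controls and 11.23, 11.33 and 11.21 in irradiated cultures, a difference of -0.11 ± 0.10 (SE). The pair of experiment 1 was equal, and the other 2 irradiated arrays lay below their controls.

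The subunits that hold the cofactors of complex I showed the same small scale. Ndufv1, which binds NADH and the flavin, read 9.96, 10.07 and 10.03 in controls and 9.99, 10.07 and 9.83 in irradiated cultures. Its lowest value was that of irradiated array 3, and the other 5 lay within 0.11 of each other. Ndufs1, the large iron-sulphur subunit, read 9.27, 9.34 and 9.34 in controls and 9.49, 9.40 and 9.19 in irradiated cultures, so that both the highest and the lowest values were irradiated arrays. Ndufv3, an accessory flavoprotein subunit, stayed between 10.98 and 11.01 on all 6 arrays. Ndufb2, Ndufb3, Ndufb7 and Ndufc2, all of the membrane arm, differed by 0.13, 0.12, 0.12 and 0.11, with adjusted p of 0.748 for Ndufb2 in the limma fit.

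Ndufab1, the mitochondrial acyl carrier protein that is also a complex I subunit, differed between its probe sets. The brightest one, with a mean of 12.17, gave a difference of 0.05. Another, with a mean of 8.07, gave -0.05, and its groups overlapped. A dimmer probe set with a mean of 5.82 read 6.17, 6.19 and 6.03 in controls and 5.67, 5.70 and 5.16 in irradiated cultures. Its groups did not overlap, and it gave -0.62 ± 0.12 (SE, limma adjusted p = 0.530). This dimmer probe set counted as expressed through its controls alone, since its irradiated values were all below 6. Ndufab1 is named for the difference between its probe sets after its values were seen. Across all members, 61 other probe sets were expressed, and 48 of them had the sign of the chosen one.

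Complex II, succinate dehydrogenase, joins the Krebs cycle to the chain and has no subunit encoded by mitochondrial DNA. Its 4 genes had a median difference of 0.020, 2 of them higher, 1 lower and 1 equal. Sdha, the flavoprotein, read 10.65, 10.76 and 10.69 in controls and 10.83, 10.66 and 10.61 in irradiated cultures, a mean difference of 0.00 ± 0.11 (SE). Its highest value and its lowest were again irradiated arrays, of experiments 1 and 3. Another probe set of Sdha, with a mean of 10.61, gave -0.11, with 0.04, -0.08 and -0.28 in experiments 1, 2 and 3. Sdhb, the iron-sulphur subunit, read 10.90, 10.85 and 10.84 in controls and 10.92, 10.94 and 10.86 in irradiated cultures. All 3 pairs of Sdhb had the irradiated array on top, by 0.02, 0.09 and 0.02, which is less than its SE of 0.09. The membrane anchors Sdhc and Sdhd differed by 0.04 and -0.02.

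In complex III, which passes electrons from ubiquinol to cytochrome c, 5 of 8 subunits were higher and 3 lower, with a median of 0.005. The core proteins Uqcrc1 and Uqcrc2 differed by -0.03 and 0.03. Uqcrfs1, the Rieske iron-sulphur protein, read 10.42, 10.71 and 10.61 in controls and 10.65, 10.69 and 10.41 in irradiated cultures, so its pairs differed by 0.23, -0.02 and -0.20. Those differences cancelled to a mean of 0.0033. Uqcrb, a subunit near the ubiquinone site, read 13.27, 13.33 and 13.37 in controls and 13.40, 13.55 and 13.45 in irradiated cultures. Here the groups did not overlap, as was the case for 5 of 90 members and for 9.96% of all genes, and the difference was 0.14 ± 0.10 (SE, limma adjusted p = 0.723). Another probe set of Uqcrb, with a mean of 11.11, gave 0.04, and its groups overlapped. Uqcr10, Uqcr11 and Uqcrh, small subunits, differed by 0.04, -0.04 and -0.05. The chosen probe set of Uqcrh was lower in all 3 experiments, while another, with a mean of 11.68, was higher in all 3, by 0.09 on average.

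Complex V had 11 of 17 subunits higher and 6 lower, with a median of 0.027. The lowest difference of all members, -0.16 ± 0.11 (SE), was that of Atp5b, the catalytic beta subunit, with a limma adjusted p of 0.731. It read 12.62, 12.71 and 12.56 in controls and 12.66, 12.45 and 12.31 in irradiated cultures. Irradiated array 1 lay among the controls, and irradiated arrays 2 and 3 lay below all of them. Atp5pb, the b subunit of the peripheral stalk, read 12.29, 12.39 and 12.40 in controls and 12.21, 12.27 and 12.19 in irradiated cultures. Every irradiated value was below every control, and the difference was -0.14 ± 0.10 (SE, limma adjusted p = 0.736). Another probe set of Atp5pb, with a mean of 11.23, gave -0.05, and there the groups overlapped. Atp5a1, the alpha subunit, differed by -0.04. Atp5g1, Atp5g2 and Atp5g3, which encode the same mature c subunit of the rotor ring, differed by 0.03, 0.08 and -0.01. Among the small subunits, Atp5e and Atp5k differed by 0.10 and 0.08.

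Complex IV, cytochrome c oxidase, was the complex with a median below 0, at -0.010, with 8 of 17 subunits higher and 9 lower. Without experiment 3 its median was 0.025. The widespread subunits varied little: Cox4i1, the large regulatory subunit, lay between 12.90 and 13.00 on all 6 arrays, and Cox6a1 between 13.76 and 13.84. Cox5b, which binds zinc, read 12.75, 12.80 and 12.75 in controls and 12.88, 12.88 and 12.82 in irradiated cultures. The groups of Cox5b did not overlap, and the difference was 0.09 ± 0.09 (SE, limma adjusted p = 0.824). Cox5a, Cox6b1, Cox7a2, Cox8a and Ndufa4, a protein first counted with complex I and now with complex IV, differed by -0.03, -0.07, 0.04, 0.08 and 0.01.

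Of the 7 complex IV isoforms that are restricted to some tissues, 2 were expressed by the level used here. These were Cox6b2 and Cox8c, both known from testis. Cox6b2 read 8.70, 7.93 and 8.19 in controls and 8.90, 8.34 and 8.38 in irradiated cultures. The arrays of experiment 1 were the highest of each group, each irradiated array was above its own control, by 0.20, 0.41 and 0.19, and the groups overlapped. The difference of 0.27 ± 0.10 (SE) had an unadjusted p of 0.036 and a limma adjusted p of 0.597. Cox8c read 6.40, 6.46 and 6.69 in controls and 6.43, 6.44 and 6.41 in irradiated cultures, so that control array 3 stood above the other 5. These values are close to the level of 6, and another probe set of Cox8c, with a mean of 5.40, was below it in both groups.

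The other restricted isoforms stayed below a mean of 6 in both groups. Cox4i2, a lung form that responds to low oxygen, differed by 0.07, with 4.89 ± 0.10 (SD, n = 3) after irradiation and 4.82 ± 0.22 (SD, n = 3) without it. The muscle forms Cox6a2, Cox7a1 and Cox8b differed by 0.05, -0.10 and -0.09. Cox7b2, a testis form, had a mean of 2.62 in controls and 2.67 in irradiated cultures. The male germ cell genes Prm1, Prm2, Tnp1, Ldhc and Cyct were all below 6 in both groups. On this list of 8 germ cell markers, the 2 expressed genes were Cox6b2 and Cox8c themselves.

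**Figure D2:**
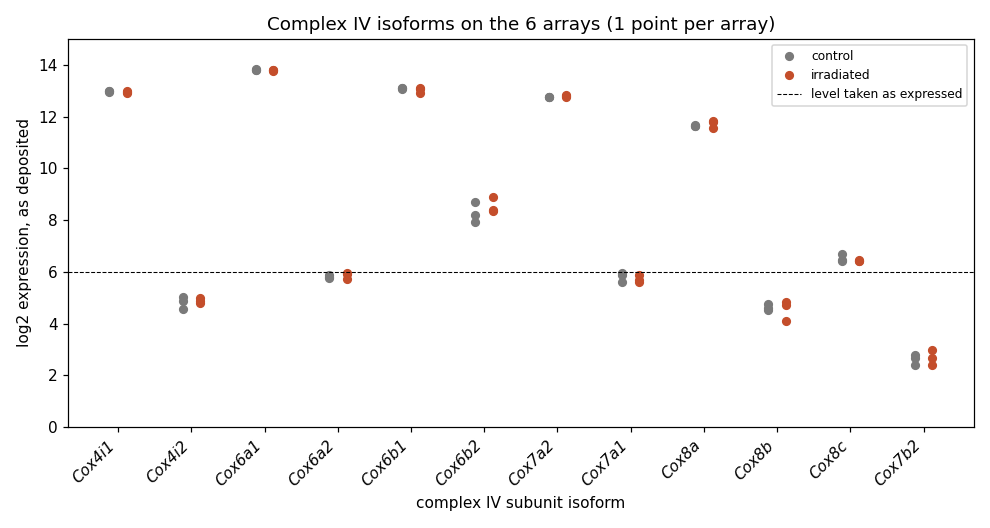
Log2 expression of complex IV isoforms on the 3 control and 3 irradiated arrays, 1 point per array; the dashed line marks the level of 6 taken as expressed. Points of the 2 groups lie close together within each gene, and the restricted forms above the line are Cox6b2, from 7.93 to 8.90, and Cox8c, from 6.40 to 6.69; different probe sets are not to be compared in height.

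Some of the chain genes' promoters held letters of known motifs, which the choice of members did not use. In RefSeq's promoters for assembly GRCm38.p6, which run from 250 bases before to 50 bases after a transcript start, 74 of the 90 members were found, with 79 promoters in all. Letters of the NRF1 site, GCGCA and GCGC with any 1 base between them, searched on both strands as all motifs here, were in 18 of these, or 22.8%, against 4.60% of all 32851 promoters of that length. Those of the GABPA site, CCGGAAG, were in 24.1% against 8.86%, and those of the YY1 site, AAGATGGCG, in 8.86% against 1.40%. NRF1, GABPA and YY1 are factors known for driving nuclear genes of mitochondrial proteins. Their letters, and those of SP1 below, each contain the dinucleotide CpG, of which members' promoters held a median of 20 against 7 over all promoters. The shares are not matched for CpG, and its part in them was not tested. The letters GGGCGG of SP1 were in 45.6% against 35.7%, CCAAT in 41.8% against 37.4%, and TATAAA in 11.4% against 13.6%. TCAAGGTCA, bound by the estrogen-related receptor ERRA, was in only 2 of the 79, or 2.53%, against 0.423%. Matches to different motifs may share bases, and a match describes the letters and shows no binding.

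The windows that follow cover the 150 bases before the start, 5′ to 3′ on the gene's strand, of genes that differ in these letters. Capitals mark NRF1 or GABPA letters on either strand. Sdhd (minus strand, chr9:50603850-50603999) and Cox6a1 (minus strand, chr5:115348959-115349108) hold both, Ndufa8 (minus strand, chr2:36049339-36049488) holds NRF1 letters, and Cox6b1 (minus strand, chr7:30626115-30626264) holds GABPA letters. The restricted forms Cox6b2 (minus strand, chr7:4753095-4753244) and Cox8b (minus strand, chr7:140900447-140900596) hold neither in this window. That is not particular to them: the widespread Cox7a2 and Cox8a hold neither there as well. In the whole promoters 48.1% of the members' held NRF1, GABPA or YY1 letters, against 13.6% of all, again not matched for CpG.
Sdhd: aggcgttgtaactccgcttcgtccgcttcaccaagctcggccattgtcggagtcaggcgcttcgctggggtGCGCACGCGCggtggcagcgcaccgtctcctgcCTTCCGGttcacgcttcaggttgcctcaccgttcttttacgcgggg
Cox6a1: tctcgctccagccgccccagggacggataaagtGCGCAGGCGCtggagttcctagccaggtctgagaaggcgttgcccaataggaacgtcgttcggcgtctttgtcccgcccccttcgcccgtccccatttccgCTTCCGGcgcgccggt
Ndufa8: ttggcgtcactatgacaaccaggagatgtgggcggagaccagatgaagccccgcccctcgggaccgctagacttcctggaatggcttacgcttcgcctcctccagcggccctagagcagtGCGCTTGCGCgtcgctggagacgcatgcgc
Cox6b1: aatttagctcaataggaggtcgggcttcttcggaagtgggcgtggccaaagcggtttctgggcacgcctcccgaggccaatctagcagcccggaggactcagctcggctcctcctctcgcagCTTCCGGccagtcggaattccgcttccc
Cox6b2: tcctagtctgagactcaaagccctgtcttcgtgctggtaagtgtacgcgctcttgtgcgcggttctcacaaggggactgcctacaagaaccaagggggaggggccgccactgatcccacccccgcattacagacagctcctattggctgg
Cox8b: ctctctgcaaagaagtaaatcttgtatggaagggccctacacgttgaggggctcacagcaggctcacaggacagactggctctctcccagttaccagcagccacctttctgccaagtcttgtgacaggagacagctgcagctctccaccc
CpG dinucleotides were counted as well. The 300-base promoters of the members held a median of 20 CpG against 7 over all promoters, and the 4 restricted forms with a promoter held 2 to 10, with 10 for Cox6b2 and 2 for Cox8b.

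The medians of the 5 complexes were all near 0 over the 3 experiments, and within single experiments they stood to either side of it. Among expressed subunits, the median difference of complex I was 0.10, 0.08 and -0.06 in experiments 1, 2 and 3. For complex II these medians were 0.07, 0.05 and -0.05, for complex III 0.085, -0.025 and -0.065, for complex IV 0.03, 0.03 and -0.08, and for complex V 0.07, 0.02 and -0.03. All 5 complexes were thus above 0 in experiment 1 and below 0 in experiment 3. Over all 9302 expressed genes the medians were 0.01, 0.00 and 0.00, and over the 1752 other genes with a mean of at least 10 they were 0.01, 0.00 and 0.01. Without experiment 1 the 3-experiment medians of complexes II, III and V went from 0.020, 0.005 and 0.027 to -0.020, -0.0375 and -0.010, and that of complex I to 0.00.

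**Figure D3:**
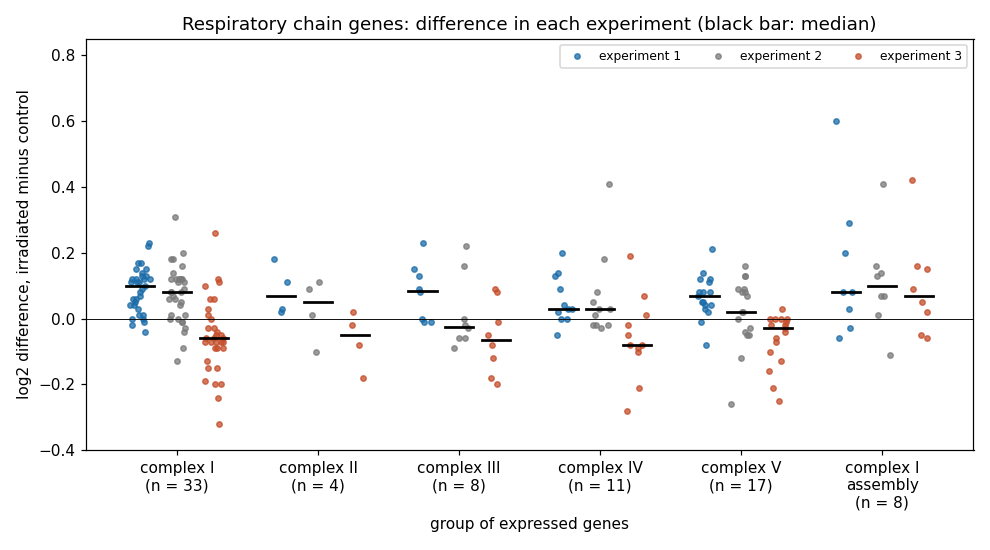
Log2 difference (irradiated minus control) of each expressed gene in experiments 1, 2 and 3, grouped by complex, 1 point per gene; black bars are medians. The medians of complexes I to V lie between 0.03 and 0.10 in experiment 1 and between -0.08 and -0.03 in experiment 3, while the assembly factors of complex I lie at 0.08, 0.10 and 0.07.

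Counted by gene, 60 of 73 expressed subunits were higher in irradiated cells in experiment 1 and 8 were lower, against 50.3% and 47.3% of expressed genes. In experiment 3, 15 were higher and 53 lower, against 49.1% each way of expressed genes. Both held, higher in experiment 1 and lower in experiment 3, for 43 subunits, or 58.9%, against 20.4% of all expressed genes. The pattern was picked after the medians of these same subunits were seen, so its share describes them and tests nothing. Scalings chosen after the data were seen left this share at 56.2% with quantile normalization and at 63.0% with median centring. In the 57 other expressed probe sets of the subunits, read on the same 6 arrays and so no independent support, it was 50.9%. The subunits share 6 RNA samples, so their number adds no replicates. Whether the effect of irradiation differs between experiments could not be tested, since each experiment has 1 array per group. A single sign in all 3 experiments was seen in 20% of members against 30.8% of all genes.

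Read array by array, the expressed subunits as a whole were highest on irradiated arrays 1 and 2 and lowest on irradiated array 3. Complex III was an exception at the top, with its highest median deviation, 0.062, on control array 2. The median deviation of expressed subunits from each gene's own mean was -0.015, 0.00 and -0.015 on control arrays 1 to 3 and 0.052, 0.047 and -0.075 on irradiated arrays 1 to 3. Irradiated array 3 was the lowest or tied for lowest of the 6 for 44 of 73 expressed subunits, or 60.3%, against 20.8% of expressed genes. With quantile normalization that count was 33, or 45.2%, against 16.0%. Irradiated arrays 1 or 2 gave the highest value, or tied for it, for 55 subunits, or 75.3%, against 38.4% of expressed genes. The counts of lowest and highest arrays were chosen after the values of these subunits were seen. The 3 controls lay closer together: the range over the 3 arrays of a group had a median of 0.09 in controls and 0.17 in irradiated cultures for expressed subunits, and of 0.26 and 0.28 for all expressed genes.

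**Figure D4:**
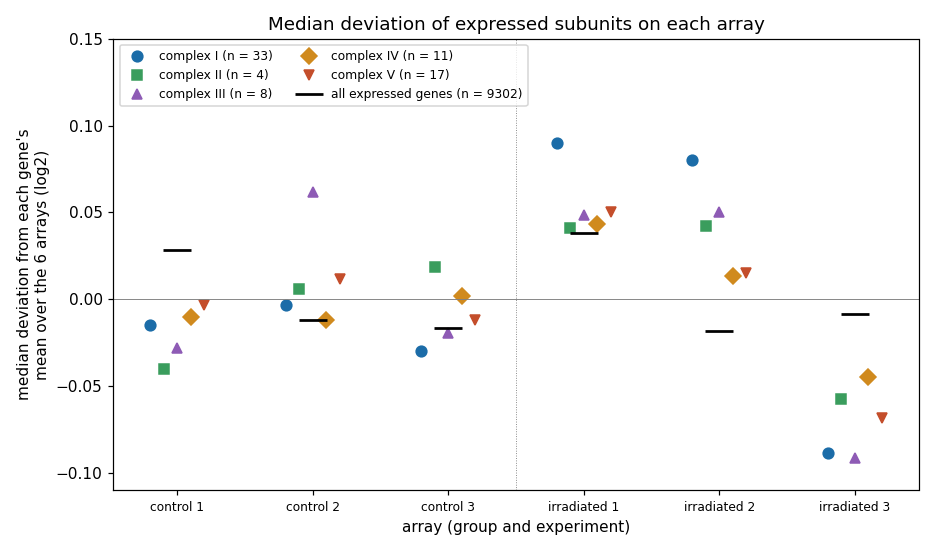
Median deviation of the expressed subunits of each complex from each gene's mean over the 6 arrays (log2), by array; black bars show all expressed genes. The complexes lie between -0.04 and 0.06 on the 3 control arrays, above 0 on irradiated arrays 1 and 2, and between -0.092 and -0.045 on irradiated array 3.

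Irradiated array 3 also had the brightest hybridisation controls. Their 18 probe sets averaged 11.73 on it, 11.16 and 10.82 on irradiated arrays 1 and 2, and 11.08, 10.85 and 11.23 on control arrays 1 to 3. Its pair differed by 0.502, and the pairs of experiments 1 and 2 by 0.0806 and -0.0344. The part of this in the lower values of that array was not tested. Without experiment 3 the median difference of all subunits was 0.065 in place of 0.023, and still no member passed.

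Few members differed between experiments. For the difference among the 3 experiments, a limma F statistic on the block called 0 members after adjustment, 2 of all probe sets, or 0.00444%, and 2 of the 18193 genes, or 0.011%. At an unadjusted p under 0.05 it took 3 members, or 3.33%, against 14.8% of all genes, and 0 members without experiment 1. The 3 were Cox6b2 (limma F adjusted p = 0.147), Cox7b2 and Ndufaf2, an assembly factor. Ndufaf2 read 8.18, 7.91 and 7.79 in controls and 8.21, 8.05 and 7.73 in irradiated cultures, so that both groups were highest in experiment 1 and lowest in experiment 3. Ndufa4l2, a relative of Ndufa4 known to respond to low oxygen, ran the other way, with 5.93, 6.07 and 6.30 in controls and 5.98, 6.21 and 6.32 in irradiated cultures. Cox7a2l, which helps join complexes III and IV, differed by -0.08 between the groups.

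All 8 assembly factors of complex I were higher in irradiated cells on average, with a median of 0.065, though 7 of the 8 had unadjusted p above 0.05. These proteins help build complex I and are no part of the finished enzyme. Ndufaf7, a methyltransferase, read 6.57, 6.42 and 6.42 in controls and 7.17, 6.83 and 6.51 in irradiated cultures. Each irradiated array was above its control, by 0.60, 0.41 and 0.09, and irradiated array 3 lay within the range of the controls. The difference of 0.37 ± 0.12 (SE) had an unadjusted p of 0.023 and a limma adjusted p of 0.575. Ndufaf4 read 9.21, 9.39 and 9.08 in controls and 9.41, 9.40 and 9.50 in irradiated cultures. Ndufaf8 read 8.96, 8.94 and 8.90 in controls and 9.04, 9.10 and 9.06 in irradiated cultures. Neither Ndufaf4 nor Ndufaf8 had overlapping groups, and their differences were 0.21 ± 0.11 (SE) and 0.13 ± 0.09 (SE). Other expressed probe sets of these genes gave 0.23 and 0.03, with overlapping groups and signs that differed between experiments. Ndufaf3 and Ndufaf5 differed by 0.05 and 0.08.

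Other genes around the chain were read from lists. Of 16 complex I assembly genes, which include the 8 above, 13 were higher and 3 lower, with a median of 0.077, and Nubpl, which brings iron-sulphur clusters, differed by 0.23. The 4 complex II assembly genes had a median of 0.060, with 0.14 for Sdhaf1, 0.12 for Sdhaf4 and 0.0033 for Sdhaf2. The 6 complex III assembly genes had a median of 0.107, with 0.16 for Ttc19, 0.12 for Uqcc1 and 0.09 for Uqcc3. Of 21 complex IV assembly genes 14 were higher and 7 lower, with a median of 0.097, and Coa3, Cmc1 and Pet100 differed by 0.24, 0.22 and 0.18. In experiments 1, 2 and 3 the list medians were 0.105, 0.035 and 0.08 for complex I and 0.075, -0.02 and 0.095 for complex II. For complex III they were 0.10, 0.09 and 0.00. For complex IV they were 0.08, -0.03 and 0.11, with 9 genes higher and 11 lower in experiment 2. None of these genes passed adjustment, and the assembly lists of complexes I to IV had 2 genes at an unadjusted p under 0.05, Ndufaf7 and Coa3, both higher, where 8.31% of all genes had such a p in either direction.

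The 5 complex V assembly and control genes had a median of 0.010. Atpaf1, a chaperone of the beta subunit, read 7.38, 7.37 and 7.40 in controls and 7.94, 7.60 and 7.67 in irradiated cultures. Its groups did not overlap, and the difference was 0.35 ± 0.11 (SE, unadjusted p = 0.016, limma adjusted p = 0.563), while Atp5b itself differed by -0.16. Tmem70 and the inhibitor Atpif1 differed by -0.08 and 0.03.

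Among 22 genes of mobile carriers and electron entry, 9 were higher, 12 lower and 1 equal, with a median of -0.0067. Gpd2, the mitochondrial glycerol phosphate dehydrogenase that feeds ubiquinone, read 7.90, 7.41 and 7.31 in controls and 8.16, 7.69 and 7.61 in irradiated cultures. The 3 pairs differed by 0.26, 0.28 and 0.30, while the groups overlapped, and the limma adjusted p was 0.574. Cytochrome c, Cycs, differed by -0.08, Aifm1 by -0.23 and Coq5 by 0.12. The 17 Krebs cycle genes had a median of 0.020, and 0.14, 0.05 and -0.09 in experiments 1, 2 and 3, the same signs as complexes I, II, IV and V. Dld, a subunit shared by several dehydrogenases, differed by 0.23 (unadjusted p = 0.047), Ogdh by -0.29 and Suclg2 by 0.15.

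Regulators of mitochondrial formation, 24 genes, had a median of -0.020, with 11 higher and 13 lower, 2 higher and 1 lower at an unadjusted p under 0.05, where 3.70% of all genes were called higher and 4.61% lower. Nrip1, a corepressor that holds down oxidative genes in fat cells, read 9.55, 9.58 and 9.34 in controls and 10.17, 10.05 and 9.79 in irradiated cultures. Its groups did not overlap, and the difference was 0.51 ± 0.10 (SE, limma adjusted p = 0.530). Gabpb1, a partner of GABPA, read 6.86, 6.20 and 6.26 in controls and 7.07, 6.54 and 6.95 in irradiated cultures, a difference of 0.41 ± 0.12 (SE, limma adjusted p = 0.555). Tfb1m differed by 0.27. Ppargc1a, the coactivator known as a main driver of mitochondrial formation, was below 6 in both groups, with 4.30 ± 0.28 (SD, n = 3) after irradiation and 4.79 ± 0.11 (SD, n = 3) without it. Ppargc1a is named after its values were seen, and its limma adjusted p was 0.560. In a list of 6 genes for uncoupling and transport, 1 was higher and 5 were lower, with a median of -0.18. The median was -0.018 over the 4 expressed ones, since Ucp1 and Ucp3, with the lowest differences of -0.87 and -0.42, had means below 6. Mcu, the calcium channel of the inner membrane, differed by -0.35, Higd1a by 0.06 and Mpc1 by -0.02. Ucp1, which uncouples respiration in brown fat and is also named after its values were seen, read 5.48, 5.76 and 6.69 in controls and 4.68, 5.47 and 5.17 in irradiated cultures, all but 1 below 6. Its difference was -0.87 ± 0.22 (SE, limma adjusted p = 0.538).

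Markers of cell types were read beside these values, since in bulk samples fewer cells of a type and less RNA per cell cannot be told apart. All 7 fat cell markers measured, Adipoq, Fabp4, Lpl, Cebpa, Pparg, Lipe and Cidec, were expressed, and their mean level ran from 11.51 to 11.77 in controls and from 11.50 to 11.77 in irradiated cultures. Their median differences were 0.22, 0.01 and -0.15 in experiments 1, 2 and 3, again above 0 in experiment 1 and below 0 in experiment 3, as for the chain. The part of fat cell content in the chain's values was not tested. Stromal markers were expressed for 9 of 10, with means of 8.85 to 9.03 in controls and 8.90 to 9.07 in irradiated cultures, and Thy1, a defining marker, was at 4.11 and 4.07.

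All 9 macrophage markers measured were also expressed, among them Lyz2 at 14.21 in controls and Csf1r at 13.03, in cells labelled as mesenchymal stem cells. Their mean ran from 11.28 to 11.83 in controls and from 11.05 to 11.70 in irradiated cultures, and their median differences were -0.20, 0.08 and -0.10. Averaged over the experiments all 9 were lower in irradiated cells, against 47.9% of all genes, and 1 of them, Cd14, had an unadjusted p under 0.05 (limma adjusted p = 0.538). The part of these cells or transcripts in the chain's values was not tested. The 12 striated muscle and the 5 endothelial markers were all below 6. Of 8 brown fat markers 1 was expressed, Dio2, and of 5 smooth muscle markers 4 were, with means of 7.89 to 8.25 in controls and 7.66 to 8.05 in irradiated cultures over all 5, each of which was lower in irradiated cells on average. The part of these in the chain's values was not tested.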

How the data were processed

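Mouse Affymetrix array values were compared for 3 irradiated and 3 control cultures. The authors deposited log2 values with 2 decimals for each probe set. The submitters' processing notes name RMA, affy and limma, and the sources used here give neither versions nor which arrays were normalized together.

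Of 45101 probe sets, 64 array controls were left out. Names came from the platform annotation, and no gene was named from a probe set with several symbols. The members and lists were chosen with earlier results of these data known. The comparison used limma 3.58.1 (R 4.3.3; lmFit, eBayes, two-sided, Benjamini-Hochberg over 45037 probe sets at 0.05), with each experiment as a block, since the design text pairs each irradiated culture with its adjacent control. Deviations from the group means correlated at 0.787, 0.028 and 0.324 within pairs 1 to 3, so the pairing rests on the design text. Residual degrees of freedom were 2, and the prior added 4.53. The fit was tested on simulated data.

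Named genes were the 5 members of each complex and of the assembly factors with the largest limma statistic, fixed core subunits and isoforms, the 4 expressed members with the largest F statistic between experiments, 3 genes per pathway list, and members differing by at least 0.3 with 1 sign. Outside this rule, and chosen after their values were seen, are Cox7b2, Cox7c, Cycs, Ndufa8, Ndufab1, Ndufb4, Ndufb5, Ndufv3, Ppargc1a, Ucp1, Ucp3, Uqcrc2 and the single cell type markers. A further 8 lists of cell type markers were described by counts. Promoters were searched for exact letters. Results were computed again with the block dropped or random, without each experiment, without dim probe sets, after median centring or quantile normalization, with a robust prior that follows intensity, with 1 probe set per gene, and with the mean over a gene's expressed probe sets. Python 3.11.15 and matplotlib 3.10.9 drew the figures.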

Additional observations from a re-analysis of the deposited data

Results flagged for a closer look

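The hybridisation controls are spiked-in transcripts that enter no test. In experiment 3 their mean over 18 probe sets was 0.502 higher (log2) in the irradiated culture's array, a signal outside the main measurement. On that same array 44 of 73 expressed subunits had their lowest value or tied for it. The part of this in those values was not tested.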

How the results depend on the processing

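No member passed an adjusted p of 0.05 under any alternative run, and neither did any of the 72 named genes. The medians of complexes I to V moved by less than the spread between experiments under every alternative, among them quantile normalization, median centring and Ndufa4 counted with complex I, the last chosen after the data were seen. Most of this was fixed in advance. Changes of the block, the prior or the probe sets tested leave a gene's difference as it is. Leaving out 1 of 3 experiments moves a gene's mean by less than the SD of its 3 differences. It still took medians across 0. Their ranges were -0.02 to 0.0575 for complex II and -0.0375 to 0.0375 for complex III. For complexes IV and V they were -0.02 to 0.025 and -0.01 to 0.07. At an unadjusted p under 0.05, the count of 2 members was 0 with no replicate block, 1 with a random replicate block, 4 with an intensity trend and robust prior, and 0 to 2 with an experiment left out. Over all probe sets the count of 3631 was 2168 with no replicate block, 1692 to 3748 with an experiment left out, and 2260 without dim probe sets and 1692 with 1 probe set per gene, where fewer were tested. With a random replicate block, 2 of all probe sets passed adjustment, none of them a member. For the difference between experiments, the 2 probe sets past adjustment became 203 without dim probe sets, 716 with the intensity trend, 11 with 1 probe set per gene and 0 with any experiment left out, and the 3 members at an unadjusted p under 0.05 became 0 to 4 with an experiment left out. Apart from smaller sets of probe sets or arrays, the cause of these moves was not tested. Control and irradiated arrays described apart give ranges and no such count. Leaving out an experiment turned the sign of 24 named genes, none over 0.163 in size, with these ranges of the difference: Atp5a1 -0.095 to 0.025, Atp5g1 -0.02 to 0.07, Atp5g3 -0.03 to 0.01, Atpif1 -0.02 to 0.07, Cox4i2 -0.105 to 0.21, Cox5a -0.06 to 0.005, Cox6a2 -0.005 to 0.155, Cox6b1 -0.12 to 0.005, Cox7a1 -0.19 to 0.035, Cox8b -0.22 to 0.12, Cox8c -0.15 to 0.005, Higd1a -0.02 to 0.11, Mpc1 -0.07 to 0.025, Ndufaf2 -0.015 to 0.085, Ndufaf5 -0.03 to 0.17, Ndufs1 -0.045 to 0.14, Ndufv1 -0.1 to 0.015, Sdhaf2 -0.095 to 0.125, Sdhd -0.085 to 0.06, Tmem70 -0.19 to 0.005, Ttc19 -0.07 to 0.285, Uqcr10 -0.02 to 0.12, Uqcr11 -0.105 to 0.03 and Uqcrfs1 -0.11 to 0.105. Sdhaf2 also turned, to -0.000278, under quantile normalization. The data are limited to 3 pairs of arrays at 1 time point, with 1 array per group in each experiment, and hold no measure of protein, respiration or transcripts encoded by mitochondrial DNA. The labels call the experiments independent. The p-values measure the spread between them only in part. Each gene's own spread has 2 degrees of freedom, and the spread pooled over all probe sets adds 4.53. For genes with little spread of their own the pooled part sets the SE, which was at least 0.093 for every member.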
